A study of Mus musculus with 29 samples.

Results

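The genes described here are 10 genes of glucose uptake, glycolysis and lactate production, Slc2a1, Hk2, Pfkp, Aldoa, Gapdh, Pgk1, Pgam1, Eno1, Pkm and Ldha, out of 35199 genes in each deposited table of mouse bladder RNA-seq. They were taken by symbol, and each of the 10 is present in every table used. The family was chosen partly because Gapdh was higher in mutants at 4 days, so the 4-day values of these genes are a description, and nothing is read from the test of that contrast. On GRCm38 the genes lie at chr4:119108711-119137983 (Slc2a1, plus strand), chr6:82725025-82774454 (Hk2, minus), chr13:6579768-6648777 (Pfkp, minus), chr7:126795234-126800751 (Aldoa, minus) and chr6:125161715-125166467 (Gapdh, minus). The others lie at chrX:106187100-106203699 (Pgk1, plus), chr19:41911923-41918660 (Pgam1, plus), chr4:150236721-150248879 (Eno1, plus), chr9:59656368-59679375 (Pkm, plus) and chr7:46841475-46855627 (Ldha, plus).

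The study asked what an activated form of the nuclear receptor Pparg does to basal cells of the urothelium, the epithelium of the bladder, and to the tumors that arise from it. Of 29 libraries in 8 groups, 21 libraries in 6 groups are used here. Mutants are labelled K5VP16;Pparg+/- and carry the viral VP16 activator fused to Pparg in the ROSA26 locus, which a tamoxifen-inducible Cre under the Krt5 promoter switches on. The 4-day libraries hold Gfp+ cells sorted from untreated bladders 4 days after tamoxifen, from 4 controls labelled wild type and 5 mutants, and no age is given in the labels. The recombined allele also carries a Gfp reporter, so the sort collects cells in which the Krt5 promoter had driven Cre, together with the cells that came from them. The study's methods give the sorted controls as K5;mTmG, mice that carry the Cre and a reporter without the activator, which differs from the wild type label.

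The tumor libraries hold laser-captured cells from mice that drank 0.05% BBN, a nitrosamine that causes bladder cancer. By the study's methods BBN ran for 1 month before tamoxifen was delivered into the bladder of mutants and controls, and the tumors were collected 4 months after that. The titles carry the 4 months since tamoxifen and the treatment label the 5 months of BBN. There are 3 basal tumors from mice labelled wild type. The study describes its control tumors as from VP16;Pparg fl/fl or from K5;mTmG mice, which differs from that label. K5VP16;Pparg+/- mice gave 3 luminal tumors, 3 luminal domains and also 3 basal-like domains, where a domain is the upper or lower part of a lesion that holds both kinds of cell. The basal tumors differ from all other tumor groups in genotype as well as in type, so the genotype and the tumor type cannot be told apart in those comparisons. Libraries are named A, B, C and so on within a group, and a shared letter is not taken as a pair, since nothing in the labels says which luminal and basal-like domains came from 1 lesion. Each table was normalized on its own, and the same basal tumors and luminal domains stand in several tables, so the comparisons share libraries and are not independent of each other. Nothing in the labels ties each library to an animal of its own, so a p-value measures the spread between these libraries.

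Glycolysis breaks glucose down to pyruvate in the cytosol, yields ATP without oxygen and supplies carbon for nucleotides, lipids and amino acids. Lactate dehydrogenase turns pyruvate into lactate and restores the NAD+ that the pathway needs. Many tumors and dividing cells take up glucose and release lactate even where oxygen is present, and several genes of the pathway are induced by hypoxia-inducible factors. In order along the pathway, Slc2a1 is the glucose transporter Glut1, Hk2 is a hexokinase that traps glucose as its phosphate, Pfkp is the platelet form of phosphofructokinase, the committing step, and Aldoa is the aldolase that splits the sugar. Gapdh and Pgk1 carry out the first oxidation and the first ATP-yielding step, Pgam1 and Eno1 rearrange the product, Pkm makes pyruvate with a further ATP, and Ldha makes lactate.

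Many of these genes have processed pseudogenes that resemble the messenger RNA closely enough that reads may be assigned to either, which bears on every value of Gapdh and Eno1 below. Transcripts of the GENCODE M21 annotation (GRCm38) held 69 gene copies with at least 90% identity over at least 300 aligned bases to a member, of which 65 are in the tables, 44 of them for Gapdh. The copy that was given the most counts in the sorted cells was Gm13394, a processed pseudogene of 1000 bases at chr2:28933610-28934609 on the minus strand. It aligned without gaps to bases 93 to 1092 of a Gapdh transcript of 1272 bases whose coding part runs from base 93 to base 1094. The only difference in 1000 aligned bases was A438C, counted from 1 at the 5′ end of that Gapdh transcript, with the base of Gapdh first, which gives 99.9% identity. The stretch around it, from the same annotation's transcripts, is shown 5′ to 3′ because it is the only place where a read can tell the gene and this copy apart within the alignment. The differing base is in capitals.
Gapdh: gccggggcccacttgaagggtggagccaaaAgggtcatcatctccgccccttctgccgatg
Gm13394: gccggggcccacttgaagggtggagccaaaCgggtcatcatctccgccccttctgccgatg

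A short motif was present in most promoters of these genes. In RefSeq promoter windows of 300 bases on GRCm38.p6, from 250 bases before to 50 bases after a start site, ACGTG was searched on both strands, the letters at the core of the element that hypoxia-inducible factors bind. It was found in at least 1 window of 8 of the 10 genes, all but Pfkp and Eno1, and in 21.78% of the 27025 genes with a window. A gene with more windows has more chances of a match, and Aldoa and Eno1 had 3 windows and Pkm and Ldha 2. Aldoa, Pkm and Ldha each also had a window without a match. The match of Gapdh, at base 293 of its window, lay after the start site. The related GCGTG was found in 6 of the 10 genes against 35.15% of all genes, and the E-box CACGTG, which contains ACGTG on both strands, in 1 gene (Ldha) against 8.09%. The DR1 element typical of Pparg binding, a pair of AGGTCA with 1 base between them, was searched in this exact form only. It was found in 0 of the 10 genes and in 0.05% of all genes. A string this rare would hardly be met in 10 genes, so nothing is read from its absence. A match describes the letters in these windows and is not evidence of binding. The 3 promoters with more than 1 match in the 250 bases upstream of a start site are shown, 5′ to 3′ on the gene's strand, with every ACGTG or CACGT in capitals, namely Hk2 at chr6:82774455-82774704 (minus strand), Pgk1 at chrX:106186850-106187099 (plus strand) and Ldha at chr7:46845554-46845803 (plus strand).
Hk2: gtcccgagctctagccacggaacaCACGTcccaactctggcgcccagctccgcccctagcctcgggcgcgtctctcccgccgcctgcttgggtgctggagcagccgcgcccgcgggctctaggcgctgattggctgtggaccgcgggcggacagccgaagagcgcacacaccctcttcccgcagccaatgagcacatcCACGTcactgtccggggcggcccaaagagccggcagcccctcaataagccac
Pgk1: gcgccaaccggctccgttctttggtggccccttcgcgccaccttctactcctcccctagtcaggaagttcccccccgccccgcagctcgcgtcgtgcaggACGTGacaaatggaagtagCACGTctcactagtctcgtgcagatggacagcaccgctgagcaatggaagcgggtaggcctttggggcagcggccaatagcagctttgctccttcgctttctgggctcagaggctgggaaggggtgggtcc
Ldha: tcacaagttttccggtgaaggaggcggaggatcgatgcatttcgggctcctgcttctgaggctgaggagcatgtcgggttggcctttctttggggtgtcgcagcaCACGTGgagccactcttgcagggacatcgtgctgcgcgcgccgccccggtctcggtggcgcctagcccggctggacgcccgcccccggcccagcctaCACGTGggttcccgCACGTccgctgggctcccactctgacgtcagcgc

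Values are normalized counts, which sum to between 36520193 and 41435665 per library in the 4-day table and to between 41697178 and 53904714 in the 3 tumor tables. The number of reads behind them is unknown. In bulk RNA, fewer cells of a type and less RNA per cell cannot be told apart. The labelled tissue was checked by marker sums. At 4 days the 5 basal markers summed to 141693 to 177228 in controls and to 97763 to 137499 in mutants, and the 9 luminal markers to 211305 to 391138 and 265865 to 531054. The basal markers did not move as one, since Col17a1 was called lower (log2 fold change -1.34), Cd44 was called higher (0.76), and Krt5, Krt14 and Trp63 were not called (-0.30, 1.89 and -0.75). In the tumors the basal markers summed to 294354 to 660773 in basal tumors and to 14061 to 201081 in luminal tumors, and the luminal markers to 5513 to 61972 and 257127 to 1194920. Between domains the marker sums overlapped. The 9 luminal markers were all negative in basal-like domains (median log2 fold change -1.81) and the 5 basal markers all positive (0.52). Of these lists 0 genes were called by limma, with 3 and 1 under an unadjusted p of 0.05. The basal markers summed to 177096 to 283081 in luminal and 253955 to 458246 in basal-like domains. The luminal markers summed to 846246, 173774 and 137243 in luminal domains A to C and to 328364, 103249 and 39786.5 in basal-like domains A to C, so that basal-like domain A lay above luminal domains B and C. Counts are not expressed per base of transcript, so no member's level is compared with another's. The normalization scaled genes of 1 library by different factors, and whether these correct for length between libraries is not known.

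In the sorted cells 9 of the 10 genes had a positive log2 fold change in mutants at 4 days, with a median of 0.48 and a range from -0.13 (Slc2a1) to 1.01 (Gapdh). Over all 16413 genes tested 50.5% were positive and the median was 0.00. These fold changes are differences of log2(normalized count + 1) fitted with limma. Hk2 and Gapdh were the 2 genes whose libraries did not overlap between groups, where 4.67% of all tested genes were higher without overlap. They were also the 2 members under an adjusted p of 0.05, where 1.77% of tested genes were called higher and 2.85% in either direction. Gapdh kept that call in 3 and Hk2 in 1 of the 9 fits without 1 library, and Gapdh lost it when its copies were summed. Since the family was picked partly on this contrast, nothing is read from these counts. The plot of the 4-day values shows the libraries of all 10 genes.

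**Figure D1:**
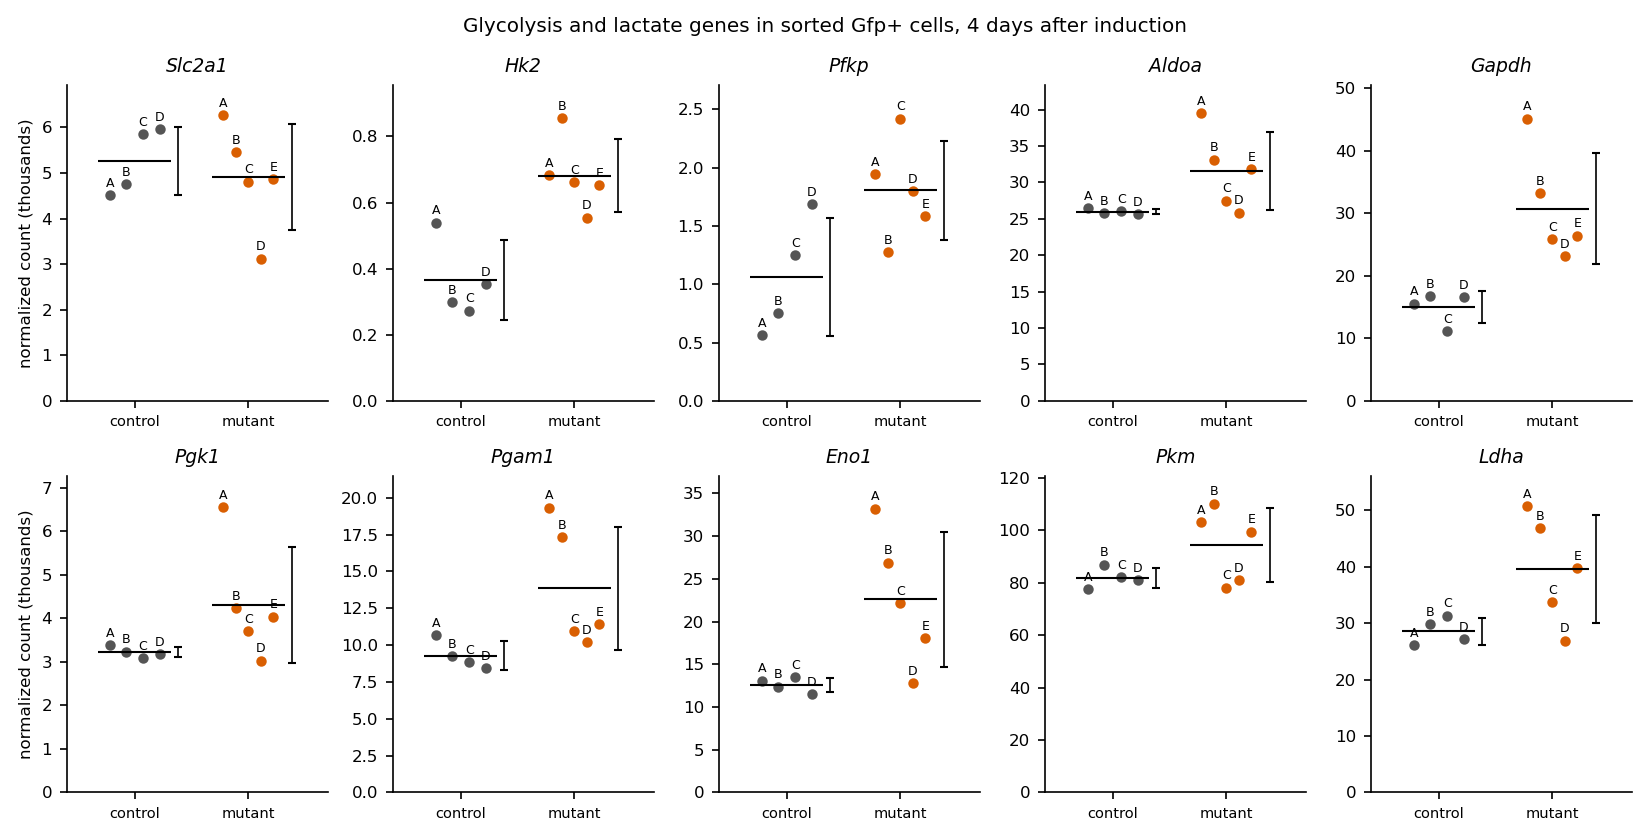
Normalized counts (divided by 1000, linear axis from 0) of the 10 genes in Gfp+ cells 4 days after tamoxifen, in 4 control and 5 mutant libraries. Each point is a library with its letter, the horizontal line is the mean and the bar beside it is ± 1 SD. Hk2 and Gapdh are the only panels without overlap between groups, and mutant library A is the highest mutant in 7 panels while D is the lowest in 8.

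At the entry of the pathway stand the transporter and the hexokinase, and no difference between them was tested. Slc2a1 held 4510.2, 4756, 5845 and 5964 normalized counts in controls A to D, while mutants A to E held 6270.2, 5460.2, 4808, 3118 and 4872. The groups overlapped fully, with means of 5269 ± 743 (SD, n = 4) and 4906 ± 1159 (SD, n = 5) and a log2 fold change of -0.13. Hk2 held 539, 298, 273 and 353 normalized counts in controls and 684, 856, 662, 554 and 652 in mutants. The highest control, A, lay just under the lowest mutant, D. The means were 366 ± 121 and 682 ± 109 normalized counts, which gave a log2 difference of 0.93 (standard error 0.21).

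Pfkp varied more among controls than any other member. Its controls held 565, 752, 1251 and 1687 normalized counts and its mutants 1942, 1278, 2419, 1799 and 1584. Control D lay inside the mutant range, above mutants B and E. The means were 1064 ± 506 and 1804 ± 425 normalized counts, which gave a log2 difference of 0.86. Aldoa, the next enzyme, was the most even gene among controls, at 26458, 25804, 26019.5 and 25648 normalized counts, against 39524, 33096, 27473, 25858 and 31845 in mutants. Mutants A, B and E stood above every control, C a little above and D among them, and the log2 fold change was 0.26.

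Gapdh is the gene with the most copies. Its controls held 15552, 16772, 11175 and 16608 normalized counts and mutants 45181, 33249, 25868, 23121 and 26434. Every mutant lay above every control, with means of 15027 ± 2624 (SD, n = 4) and 30770.4 ± 8876 (SD, n = 5) and a log2 fold change of 1.01 (standard error 0.21). The copy Gm13394 held 16794, 16484, 15140.4 and 16339.9 normalized counts in controls and 20504, 14858, 11719, 10706 and 11752 in mutants. In 4 of the 5 mutants the copy lay below every control. Of the counts given to Gapdh and its 44 copies together, the Gapdh row held 38.8% to 48.1% in controls and 65.8% to 67.1% in mutants.

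When the copies were added to Gapdh, a step chosen after the data were seen, the controls' sum was 33069 ± 2887 normalized counts (SD, n = 4) and the mutants' sum 46179.7 ± 12987 (SD, n = 5). The groups still did not overlap, from 28798 to 35060.1 against 35073 to 67357, but the nearest libraries of the groups were almost equal. The log2 fold change of the sum was 0.45, against 1.01 for the Gapdh row alone. The plot of Gapdh and Gm13394 sets the row, the copy and the sum side by side. What divides the counts between the rows of gene and copy was not tested.

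**Figure D2:**
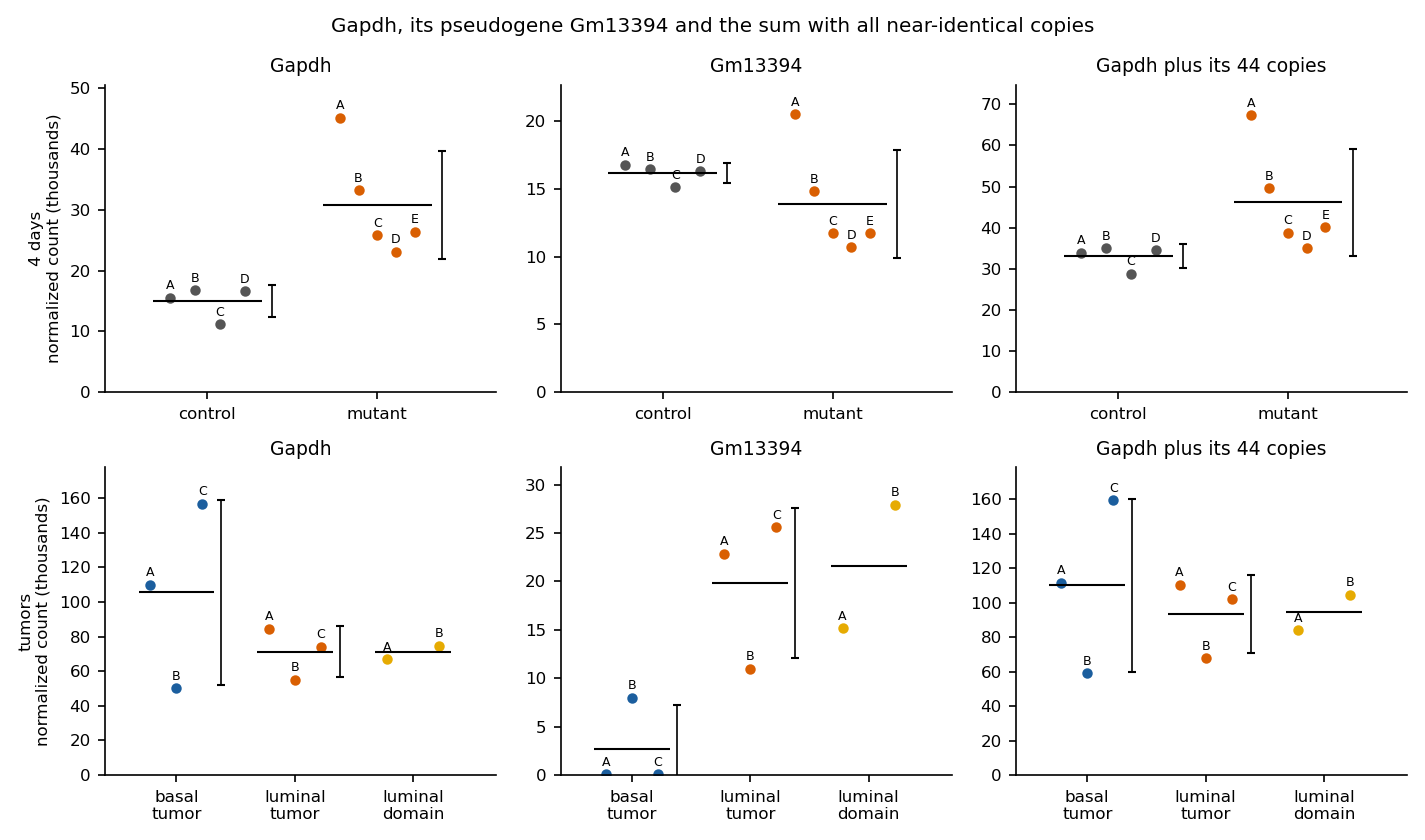
Normalized counts (divided by 1000, linear axis from 0) of Gapdh, of its pseudogene Gm13394 and of Gapdh plus its 44 copies, at 4 days (top) and in the table of 8 tumor libraries (bottom). Points are libraries with their letters, lines are means and bars are ± 1 SD for groups of 3 or more; a lower bar end under 0 is not drawn. At 4 days the Gapdh row separates the groups widely and the sum only narrowly, and in the tumors Gm13394 is near 0 in basal tumors A and C.

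The middle of the pathway varied mostly between mutant libraries. Pgk1 held 3382, 3238, 3092 and 3185 normalized counts in controls and 6558, 4234, 3708, 3029 and 4038 in mutants. Mutant A stood far above the rest and mutant D below every control, and the log2 fold change was 0.37. Pgam1 held 10659.7, 9242, 8818 and 8419.8 normalized counts in controls and 19334, 17333, 10929.8, 10215 and 11419.5 in mutants. Mutants A and B were apart from the other 3 mutants, which lay close to the highest control, and the log2 fold change was 0.53. Copies of Pgam1, mainly Pgam1-ps2, held 8.48% to 17.5% of the sum in controls and 9.84% to 16.7% in mutants, and the sum gave the same log2 fold change of 0.53.

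Eno1 held 13062, 12367, 13452 and 11536 normalized counts in controls, against 33205, 26908, 22183, 12756 and 18016 in mutants. Mutant D lay among the controls and the other 4 mutants above them. The control mean was 12604 ± 842 (SD, n = 4) and the mutant mean 22613 ± 7892 (SD, n = 5), which gave a log2 difference of 0.77. Eno1 has near-identical copies too, Eno1b at 99.5% and Gm4735 at 99.6% identity, and the Eno1 row held 53.1% to 54.7% of the sum in controls. In mutants A, B and C this share was 77.7%, 77.9% and 79.1%, and in mutants D and E it was 54.3% and 55.4%, near the controls. Gm4735 followed the same split, with 944 to 1836 normalized counts in the controls. Mutants A, B and C held 13.8, 18.1 and 0 of it, and mutants D and E held 1108 and 2476. With the copies added the means were 23458 ± 1529 and 32263 ± 7234 normalized counts, which gave a log2 difference of 0.43.

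At the end of the pathway Pkm held 77503, 86919, 82012 and 80989 normalized counts in controls and 103100.0, 110143, 78141, 81007 and 99514 in mutants. Mutants A, B and E stood above all controls and C and D within their range, and the log2 fold change was 0.19. Pkm is counted as 1 gene, so its 2 splice forms are not told apart. Ldha held 26166, 29788, 31329 and 27131 normalized counts in controls and 50722, 46878, 33724, 26923 and 39801 in mutants. Only mutant D lay in the control range, and the means were 28604 ± 2376 and 39609.5 ± 9643 normalized counts (SD), which gave a log2 difference of 0.44.

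The same mutant libraries were high or low across most of the family. Mutant A was the highest mutant for 7 genes, B for 2 and C for 1, while mutant D was the lowest for 8. The ratio of the highest to the lowest library within a group had a median over the 10 genes of 1.23 in controls and 1.89 in mutants. Together the 10 genes took 0.491% ± 0.00826 (SD, n = 4) of all normalized counts in controls and 0.621% ± 0.097 (SD, n = 5) in mutants.

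Other measures differed among these libraries or between the groups, and their part in the 4-day values was not tested. The members' share was 0.751%, 0.674%, 0.552%, 0.506% and 0.624% of counts in mutants A to E. The 9 luminal markers summed to 531054, 421097, 348418, 265865 and 361272 normalized counts in the same libraries, and 10 reference genes to 422546, 406221, 329252, 327645 and 357905. Both sums had the order of the members' share, with A highest, then B, E, C and D. The 7 cell-cycle genes, all positive with 0 called by limma and 4 under an unadjusted p of 0.05, summed to 24828 in mutant A, 11170.5 in mutant B, 4447 to 5462 in mutants C to E and 3167 to 8215 in controls.

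Markers of other cells did not have that order. The 6 fibroblast markers were all positive in mutants, 1 of them called (Lum), and summed to 11651 to 84707 in controls and to 84293, 30652, 217371, 129146 and 66749.5 in mutants A to E. The 6 muscle markers were all positive with 0 called by limma and 4 under an unadjusted p of 0.05, and summed to 174 to 1042 and 410.0 to 2719. The 4 Y-linked genes summed to 404 in control A, to 9030.2 to 9177 in controls B to D and to 338 to 395 in the mutants. Apart from control A, the group and the Y-linked level cannot be told apart.

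Around the family, few genes of linked pathways passed the test at 4 days. Of 12 other glycolytic genes tested 7 were positive and 0 were called by limma, with 3 under an unadjusted p of 0.05, where 20.8% of all tested genes were, and of 5 genes of lactate handling 4 were positive, 0 were called and 2 were under that p. Tpi1 and Ldhb were picked from these genes after their values were seen. Of the 12 glycolytic genes 5 were negative, down to -0.49, and 4.67% of all tested genes were higher without overlap. Tpi1, the isomerase between Aldoa and Gapdh, had means of 11707 ± 586 normalized counts (controls) and 15998 ± 2757 (mutants). Its groups were without overlap (log2 fold change 0.43, limma adjusted p = 0.0952). Ldhb, the heart form of lactate dehydrogenase, had means of 21636 ± 2575 and 31191 ± 4063, also without overlap (0.53, limma adjusted p = 0.0592). Of the 5 regulators of phosphofructokinase 3 were positive and 0 called, with 1 under an unadjusted p of 0.05, and of 7 genes of the pentose phosphate pathway 6 were positive and 0 called, with 2 under it.

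Where pyruvate leaves the pathway, 2 genes were called, while 2.85% of all tested genes were called in either direction. Pdk1, a kinase that shuts pyruvate dehydrogenase, fell from 5005 ± 530 to 3591 ± 279 normalized counts, which gave a log2 difference of -0.48 (standard error 0.10, limma adjusted p = 0.0310). It was the only call among 13 genes of pyruvate entry into mitochondria, of which 9 were positive, and it was lost in 5 of the 9 fits without 1 library, among them those without control B, C or D. Pcx, the pyruvate carboxylase that feeds gluconeogenesis and lipid synthesis, rose from 4778 ± 885 to 8006 ± 881, which gave a log2 difference of 0.76 (standard error 0.14, limma adjusted p = 0.0229). All 5 tested genes of gluconeogenesis were positive and Pcx was the only call, lost without control C, control D or mutant C (limma adjusted p up to 0.0699).

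The list of hypoxia genes was divided. Of its 13 genes 5 were positive and 8 negative, with a median log2 fold change of -0.06. Egln3, a prolyl hydroxylase that marks hypoxia-inducible factors for breakdown and is itself induced by them, rose from 1081 ± 118 to 2037 ± 339 normalized counts, which gave a log2 difference of 0.91 (standard error 0.13, limma adjusted p = 0.0112), and kept its call in each of the 9 fits without 1 library. The other 12 genes were not called, with 5 of them under an unadjusted p of 0.05. Over all tested genes 2.85% were called in either direction and 20.8% were under that p.

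Turning to the tumors, luminal tumors were compared with basal tumors in a table of 8 libraries that also holds luminal domains A and B, the 3 groups sharing 1 estimate of the spread. Of the 10 genes 9 had a negative log2 fold change in luminal tumors, with a median of -0.59, while over 15357 tested genes 54% were negative and the median was -0.11. None of the 10 was called by limma, where 2.2% of tested genes were, and 2 of them, Pgk1 and Eno1, were under an unadjusted p of 0.05, where 18.4% of tested genes were. None of the 10 was free of overlap between the groups, against 21.5% of tested genes. The intervals given with each gene show how large a difference these libraries leave room for.

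**Figure D3:**
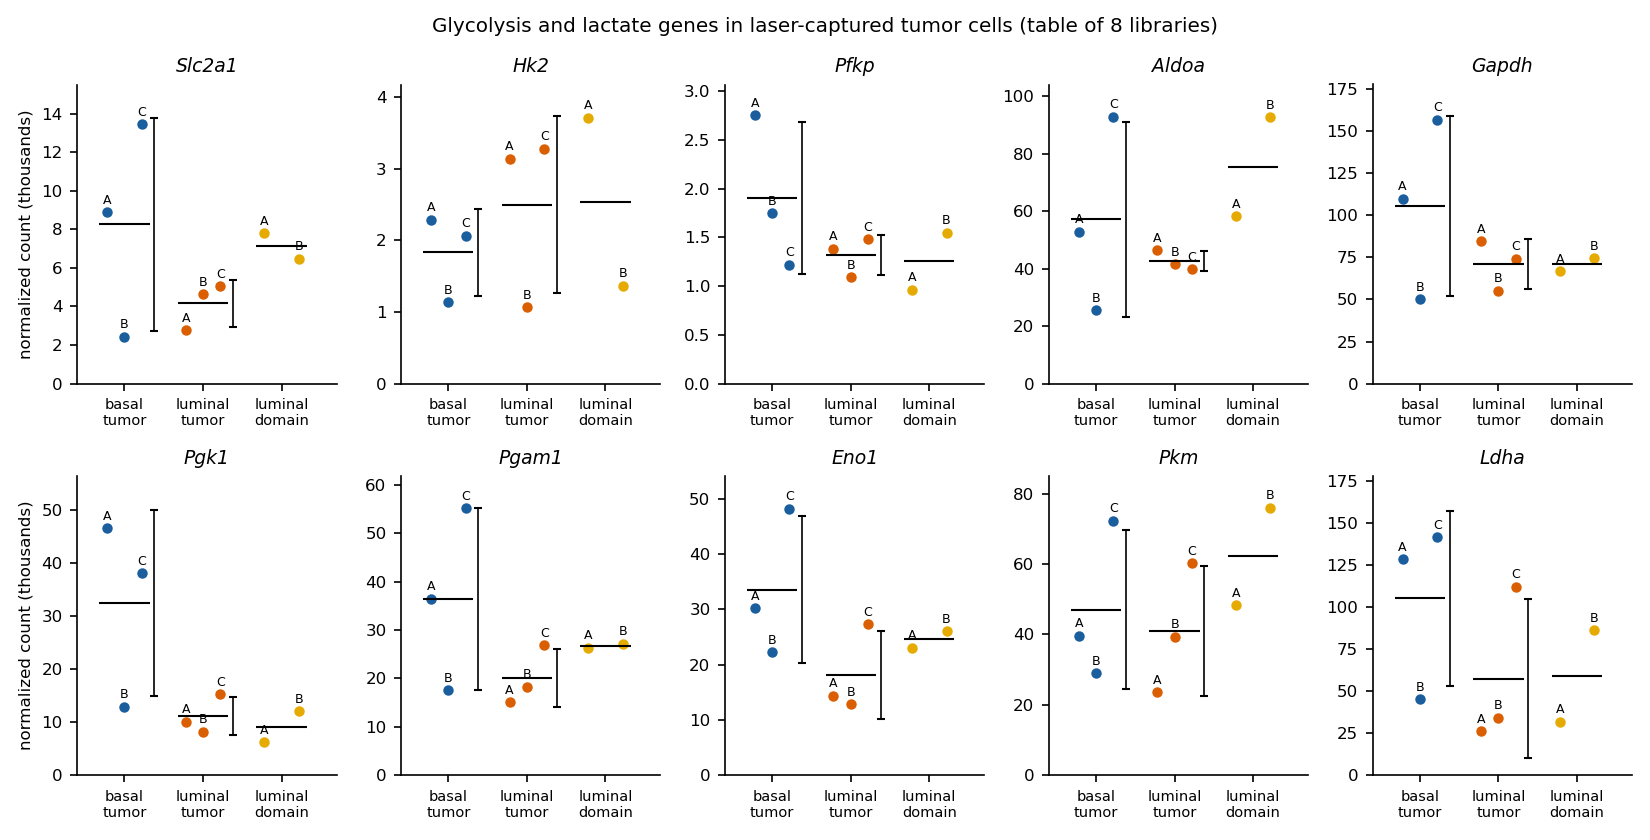
Normalized counts (divided by 1000, linear axis from 0) of the 10 genes in laser-captured cells of 3 basal tumors, 3 luminal tumors and 2 luminal domains of 1 table. Points are libraries with their letters, lines are means and bars are ± 1 SD for the groups of 3. Basal tumor B is the lowest basal tumor in 9 of 10 panels and stands above all 3 luminal tumors only for Pfkp.

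Basal tumors differed widely among themselves. The ratio of the highest to the lowest basal tumor had a median of 3.14 over the 10 genes, from 2.01 (Hk2) to 5.55 (Slc2a1), and that of luminal tumors a median of 1.84. Basal tumor B was the lowest of its group for 9 genes and C the highest for 7. The 10 genes together took 1.07%, 0.498% and 1.39% of all normalized counts in basal tumors A, B and C and 0.427%, 0.412% and 0.716% in luminal tumors A, B and C. Luminal tumor C was the highest of its group for 8 genes and exceeded basal tumor B in this share.

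Pgk1 had the largest difference. Basal tumors A, B and C held 46506, 12852 and 38074 normalized counts, luminal tumors A, B and C held 10075, 8174 and 15203, and luminal domains A and B held 6152 and 12023. Every luminal library lay below basal tumors A and C, and luminal tumor C alone lay above basal tumor B. The log2 fold change of luminal over basal tumors was -1.39 (standard error 0.51, 95% interval -2.54 to -0.25, limma adjusted p = 0.194). With 1 library left out it ran from -1.96, without basal tumor B, to -1.04, with limma adjusted p from 0.0628 to 0.442. Over the alternatives that kept every basal and luminal tumor the limma adjusted p ran from 0.0937 to 0.330. Pgk1 has no copy with counts above 0 in these tables, and its promoter is shown above.

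Eno1 held 30191, 22249.6 and 48245 normalized counts in basal tumors and 14351, 12799 and 27266 in luminal tumors. Only luminal tumor C reached above the lowest basal tumor. The log2 fold change was -0.90 (standard error 0.39, 95% interval -1.78 to -0.01, limma adjusted p = 0.267), and with its copies added -0.76. Ldha held 128311, 45178 and 141605 normalized counts in basal tumors and 26033, 34099 and 111936 in luminal tumors. Here basal tumor B sat among the luminal tumors and luminal tumor C near the basal ones. The log2 fold change was -1.02 with an interval from -2.51 to 0.48 (limma adjusted p = 0.455).

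Gapdh held 110030.0, 50037 and 156991 normalized counts in basal tumors and 84533, 55208 and 74214.5 in luminal tumors. All 3 luminal tumors lay within the range of the basal tumors, and the log2 fold change was -0.44 (95% interval -1.44 to 0.56, limma adjusted p = 0.647), or -0.90 to -0.079 with 1 library left out. The copy Gm13394 held 98.8, 7981 and 105 normalized counts in basal tumors, 22848.5, 10975.5 and 25595 in luminal tumors, and 15134 and 27937 in luminal domains. Every luminal library was above every basal tumor for this copy, whose sequence differs from Gapdh by the base shown above. The Gapdh row held 84.6% to 98.6% of the sum of gene and copies in basal tumors and 72.8% to 81.3% in luminal tumors, and with the copies added the log2 fold change of Gapdh was -0.15.

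The other 6 genes were not called either. Slc2a1 held 8881, 2428 and 13469 normalized counts in basal tumors and 2786, 4652 and 5061 in luminal tumors, which gave a log2 difference of -0.72 (95% interval -2.01 to 0.57). Pgam1 held 36502, 17503 and 55165 in basal tumors and 15117, 18259 and 26835 in luminal tumors, which gave a log2 difference of -0.75 (95% interval -1.72 to 0.22). In both genes basal tumors A and C stood above all luminal tumors and B among or below them. Pfkp (-0.46, 95% interval -1.42 to 0.49), Aldoa (-0.24, -1.27 to 0.80) and Pkm (-0.19, -1.23 to 0.85) had negative log2 fold changes. Hk2 had the only positive one, 0.34 (95% interval -0.93 to 1.62). The limma adjusted p of these 6 genes lay between 0.395 and 0.866, and intervals this wide leave room for differences of several fold in most of them.

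Other cell types differed between these groups too, and their part in the values above was not tested. The 6 muscle markers summed to 51208, 6009.9 and 48257 normalized counts in basal tumors A, B and C, the same order of B against A and C as in most of the family, and to 149.6 to 1254 in luminal tumors, where up to 4 of the 6 were at 0. Of these 6 markers 3 were called lower in luminal tumors. Basal tumor B was also the lowest of its group in the fibroblast, erythroid and hypoxia sums. It was the highest for endothelial markers, for leukocyte markers (10039 against 7434 in A and 3139 in C) and for reference genes. The reference genes summed to 771619 in B, 507284 in A and 673301 in C. For the basal, luminal, cell-cycle and Y-linked sums B lay between A and C. The 6 fibroblast markers summed to 44454 to 66575 in basal and 212 to 17129.6 in luminal tumors (2 called lower), and the 8 leukocyte markers to 3139 to 10039 and 500.2 to 2094 (0 called by limma, 2 under an unadjusted p of 0.05). The 5 erythroid genes summed to 363591 in luminal tumor B, which was the lowest of its group for 5 members, to 4132 and 2775 in luminal tumors A and C and to 2088 to 7212 in basal tumors (0 called by limma, 0 under an unadjusted p of 0.05). The 7 cell-cycle genes summed to 33879 to 48249 in basal tumors and to 7374, 9162 and 32719.8 in luminal tumors A, B and C, so that luminal tumor C, the luminal tumor with the most Ldha, Eno1 and Pkm, was also the one with the most cell-cycle counts.

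Luminal domains were compared with the same 3 basal tumors in a table of 6 libraries. Of the 10 genes 4 were positive and 6 negative, with a median log2 fold change of -0.24, and 49.6% of tested genes were negative. None was called by limma, where 2.53% of 14921 tested genes were, and 1, Pgk1, was under an unadjusted p of 0.05, where 20.6% of tested genes were. None was free of overlap, against 26.8% of tested genes. The plot of fold changes shows the 3 tumor comparisons side by side, which share libraries.

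**Figure D4:**
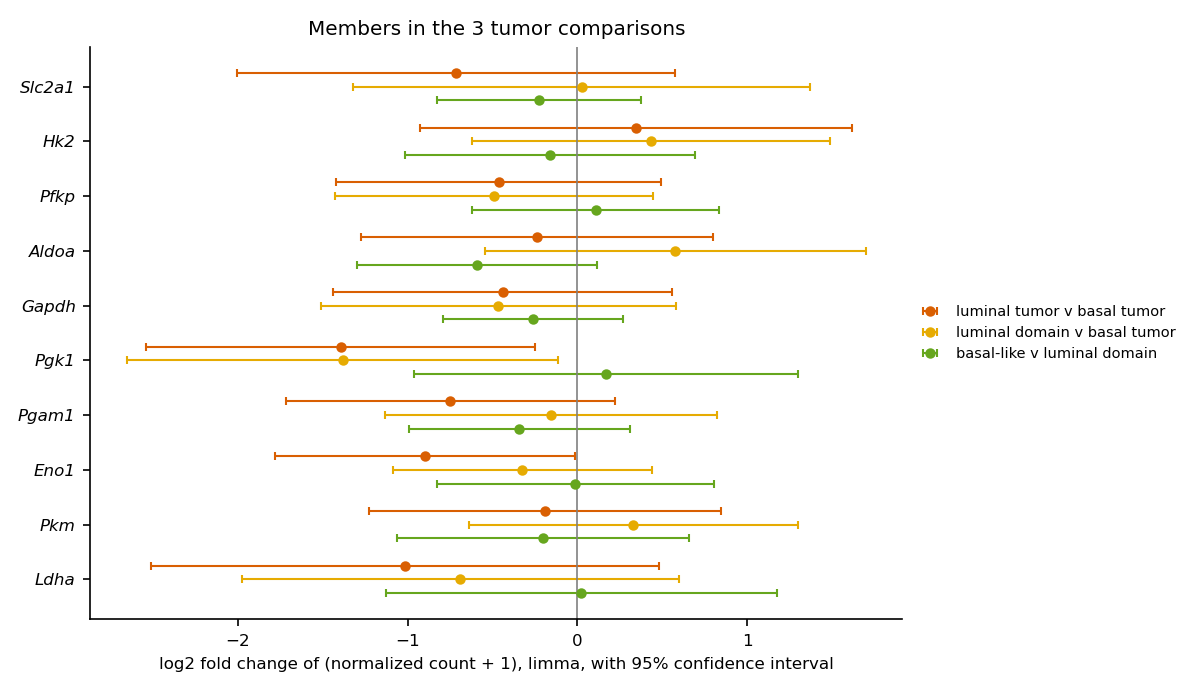
Log2 fold changes of log2(normalized count + 1) with 95% confidence intervals from limma for the 10 genes in luminal tumors against basal tumors, luminal domains against basal tumors and basal-like against luminal domains. The vertical line marks no difference. Only the intervals of Pgk1 in both comparisons with basal tumors and of Eno1 in luminal tumors lie wholly below 0, and none of the 10 genes passes an adjusted p of 0.05.

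Pgk1 held 48962, 13267 and 39633 normalized counts in basal tumors and 6572, 13011 and 16943 in luminal domains. Luminal domain C overlapped with basal tumor B, and A and B lay below every basal tumor. The log2 fold change was -1.38 (standard error 0.55, 95% interval -2.65 to -0.12, limma adjusted p = 0.211). With 1 library left out it ran from -1.96, without basal tumor B, to -0.99, with limma adjusted p from 0.0629 to 0.451. Ldha held 135044, 46621 and 147358 normalized counts in basal tumors and 33933, 93006 and 70070.1 in luminal domains, which gave a log2 difference of -0.69 (95% interval -1.98 to 0.60).

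The other genes had intervals that ran across 0 in luminal domains. Aldoa held 55639.8, 26384 and 96656 normalized counts in basal tumors and 62217, 100375 and 75226 in luminal domains. All luminal domains were above basal tumors A and B, and basal tumor C lay between luminal domains C and B, and the log2 fold change was 0.58 (95% interval -0.55 to 1.70). Slc2a1, Hk2 and Pkm gave 0.03, 0.44 and 0.33, Pfkp, Gapdh, Pgam1 and Eno1 gave -0.49, -0.47, -0.16 and -0.32, and the limma adjusted p of the 10 genes ran from 0.211 to 0.986. With copies added Gapdh gave -0.16. The direction of Slc2a1 was not stable, at -0.12 under upper-quartile scaling and -0.71 without basal tumor B. The 5 erythroid genes summed to 2148 to 7557 normalized counts in basal tumors and 51620.5 to 96202 in luminal domains (4 called higher), the 6 muscle markers to 6298 to 57231 and 1430.3 to 1911 (3 called lower), and the 7 cell-cycle genes to 36138 to 52293 and 10339 to 13337 (3 called lower). The 6 fibroblast markers were all negative and summed to 45948 to 70263 and 5011 to 31289 (0 called by limma, 4 under an unadjusted p of 0.05). Their part in the values of the family was not tested.

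Within mixed lesions, basal-like domains were compared with luminal domains, both from K5VP16;Pparg+/- mice. Of the 10 genes 3 were positive and 7 negative in basal-like domains, with a median log2 fold change of -0.18 and a range from -0.59 to 0.17, and 49.3% of tested genes were negative. In this comparison 0 of 14874 tested genes were called by limma (0%), 757 of them (5.09%) had an unadjusted p under 0.05, and none of the 10 genes was among those. The 95% intervals of all 10, from this unpaired fit, ran across 0.

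**Figure D5:**
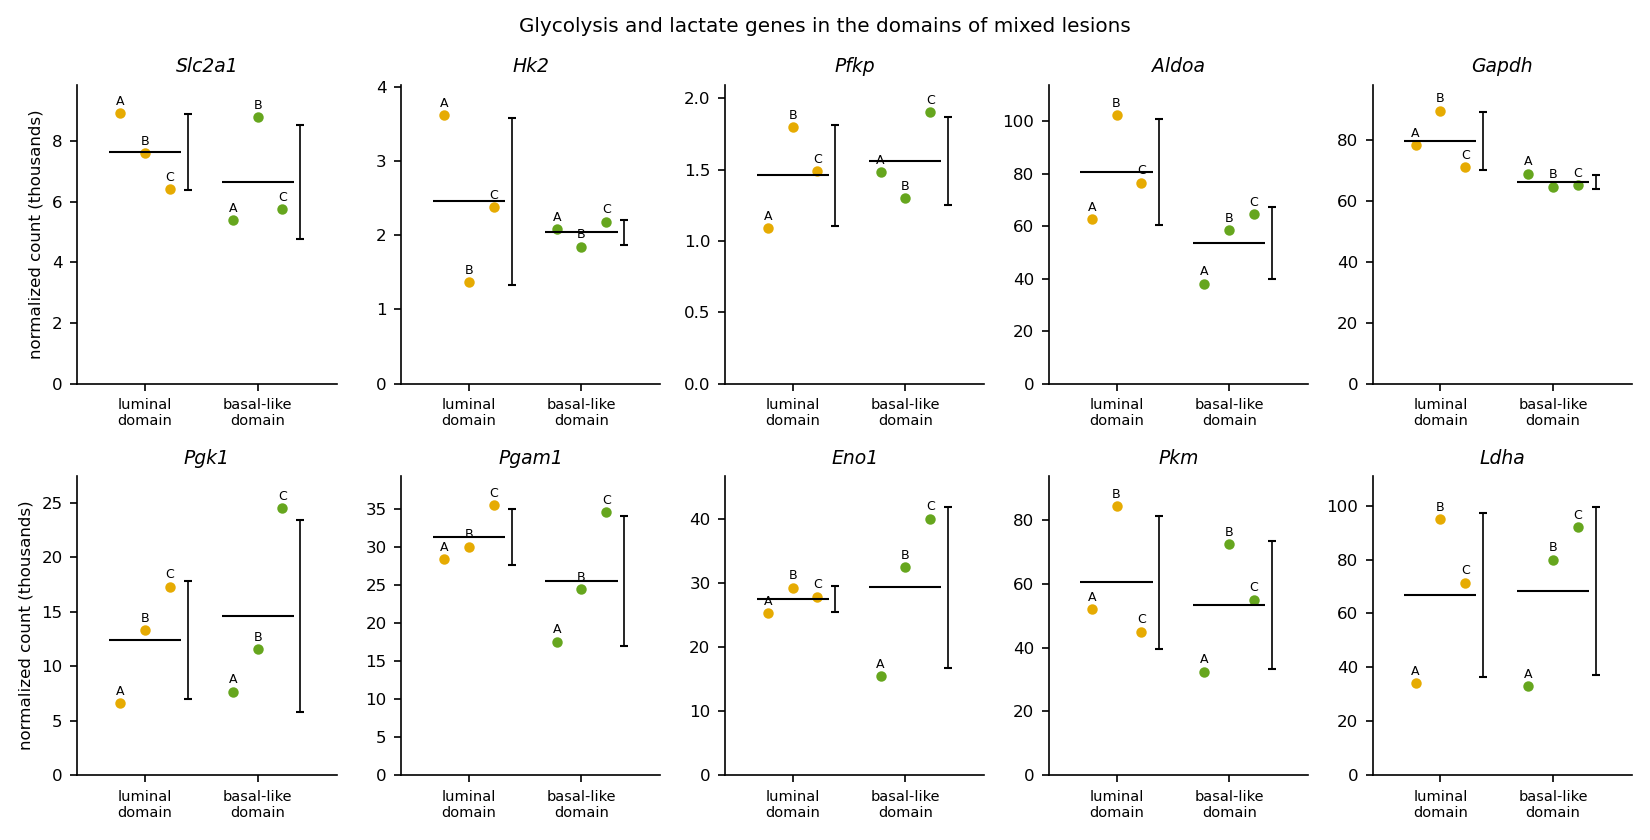
Normalized counts (divided by 1000, linear axis from 0) of the 10 genes in 3 luminal and 3 basal-like domains of mixed lesions. Points are libraries with their letters, lines are means and bars are ± 1 SD. Gapdh is the only panel without overlap between groups, and basal-like domain A is the lowest of its group in 7 panels and C the highest in 7.

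Gapdh was the 1 gene whose groups did not overlap, where 5.14% of tested genes were lower without overlap. Luminal domains held 78385, 89688 and 70984 normalized counts and basal-like domains 68905, 64638.5 and 65117. The gap between the nearest libraries, luminal C and basal-like A, was small, and the log2 fold change was -0.26 (95% interval -0.79 to 0.27, limma adjusted p = 0.951). With the copies added it was -0.27, again without overlap. Aldoa had the largest difference, with 62638, 102354 and 76638 normalized counts in luminal and 38078, 58438 and 64467 in basal-like domains. Only basal-like C reached above luminal A, and the log2 fold change was -0.59 (95% interval -1.30 to 0.12, limma adjusted p = 0.935).

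For the other genes the groups overlapped. Pgk1, the gene with the lowest values in luminal tumors and domains relative to basal tumors, held 6621.5, 13277 and 17274 normalized counts in luminal and 7639, 11564 and 24464 in basal-like domains. The libraries of both groups covered nearly the same range, and the log2 fold change was 0.17 (95% interval -0.96 to 1.30). Ldha held 34175, 94873 and 71411 in luminal and 33080.5, 79999.5 and 91975 in basal-like domains, which gave a log2 difference of 0.02 (standard error 0.50). Eno1 was at -0.01 (95% interval -0.83 to 0.80), and Slc2a1, Hk2, Pfkp, Pgam1 and Pkm were at -0.22, -0.16, 0.11, -0.34 and -0.20. The 5 erythroid genes summed to 51009 to 96129.5 in luminal and 7123 to 34276 in basal-like domains, and the 7 cell-cycle genes to 10644 to 13703 and 20169.9 to 28999, with 0 of either list called by limma and 5 and 3 under an unadjusted p of 0.05. The 6 fibroblast markers were all positive in basal-like domains and summed to 5225 to 32313 and 13859 to 104068 (0 called by limma, 1 under that p). Their part in the values of the family was not tested.

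Around the family in the tumors, 2 genes of the pentose phosphate pathway, which branches off before Pfkp, were called. It was 1 of the 7 genes of the list in luminal tumors and 2 of 7 in luminal domains, where 2.2% and 2.53% of all tested genes were called, and nothing is read from this about the pathway. Taldo1, the transaldolase that links it back to glycolysis, rose from 10698 ± 3114 normalized counts (SD, n = 3) in basal tumors to 43681 ± 9399 in luminal tumors, which gave a log2 difference of 2.05 (standard error 0.33, limma adjusted p = 0.0292). In luminal domains it was 46073 ± 14584 against 11150.3 ± 3191 in the same basal tumors (2.04, limma adjusted p = 0.0336). Pgd, which makes NADPH in that pathway, was called in luminal domains, from 4609.9 ± 1094 to 13454 ± 3431 normalized counts (1.54, limma adjusted p = 0.0467), and in luminal tumors gave 1.48 with a limma adjusted p of 0.0578. These calls depend on single libraries, since Taldo1 lost its call without basal tumor A, luminal tumor A or luminal tumor B in luminal tumors (limma adjusted p of 0.0879 to 0.108). In luminal domains Taldo1 lost it in 5 of the 6 fits without 1 library, all but that without basal tumor B (up to 0.142), and Pgd lost it in all 6 (0.0619 to 0.181). Of 7 genes of the pathway 6 were positive in luminal tumors and 6 in luminal domains, and 2 were positive in basal-like against luminal domains, while over all tested genes 54%, 49.6% and 49.3% were negative.

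The other lists of metabolic and hypoxia genes held no call in the tumors. Of 13 genes of pyruvate entry 12 were positive in luminal tumors, with 4 under an unadjusted p of 0.05, and of the 13 hypoxia genes all were negative there, with a median of -0.69 and 2 under that p. In luminal domains 10 of the 13 genes of pyruvate entry and 5 of the 13 hypoxia genes were positive, with 3 and 1 under it. Of the 5 genes of gluconeogenesis 4 were positive in luminal tumors and 5 in luminal domains, with 2 and 4 under it. Of 11 other glycolytic genes 3 were positive in luminal tumors and 3 in luminal domains, with 3 and 2 under an unadjusted p of 0.05. Among transporters of lactate, Slc16a1, the monocarboxylate transporter Mct1, ran from 247 to 4746 normalized counts in basal and from 7.05 to 1264 in luminal tumors (log2 fold change -4.99, limma adjusted p = 0.209). Slc16a7, the transporter Mct2, ran from 5.59 to 613 and from 2106 to 3254 without overlap (5.26, limma adjusted p = 0.0782).

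Across libraries the members followed each other unevenly. In the 4-day table the correlation of a gene's log2 values with the mean of the other 9 over 9 libraries was 0.89 to 0.95 for Aldoa, Gapdh, Pgk1, Pgam1, Eno1 and Ldha, 0.75 for Pkm, 0.71 for Hk2, 0.40 for Pfkp and 0.26 for Slc2a1. In the table of 8 tumor libraries it was 0.95 for Pgam1, 0.88 for Eno1, 0.24 for Pfkp and 0.14 for Hk2. Outside the family, the genes whose log2 values followed the mean of the 10 most closely were Lpcat4 (Pearson r = 0.98), Tpi1 (0.98), Sec11c (0.98), Sprr2g (0.98) and Cysrt1 (0.97) at 4 days and Cstdc6 (0.98), Cfap157 (0.96), Tubb3 (0.96), Wdr45b (0.94) and Ilk (0.94) in the tumors. These values describe 9 and 8 libraries that share groups, scaling and processing, and carry no test.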

How the data were processed

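The deposited values are normalized counts per gene, a signal on a linear scale. The authors made them from kallisto 0.44.0 estimates, summed to genes with tximport and normalized with DESeq2 1.18 in each table separately. The scaling was not 1 factor per library. From the table of 8 tumor libraries to that of luminal domains, basal tumor A went from 110030 to 121537 for Gapdh and from 46506 to 48962 for Pgk1. Builds GRCm38 and GRCh38 are named in the submitters' processing notes, and the transcript index is not given in the sources used here. Library preparation (SMART-Seq v4 and Nextera XT) did not mark strand. Files with the authors' own fold changes and p-values were not used, and neither were 8 columns of a table of BBN-treated bladders, whose names tie them to no condition.

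Here log2(normalized count + 1) was fitted with limma 3.58.1 in R 4.3.3, with a trend in the prior variance, on genes with at least 10 normalized counts in as many libraries as the smaller group holds (4 at 4 days, 3 in the tumors). Tests were two-sided with Benjamini-Hochberg adjustment over all tested genes at 0.05. This scale understates the change of low genes. Luminal and basal tumors were fitted with the luminal domains of their table, all other comparisons on their own groups, and the fit was tested on simulated data, where it recovered most changes at 4 days, a minority between domains and few, even of large ones, in the comparisons with basal tumors, so an absence of calls there says little. Gene copies were found with minimap2 2.31-r1302 against GENCODE M21 transcripts.

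The 10 members and the 17 lists beside them, with 129 genes, were chosen with earlier results of these data known. Outside the members, genes called in a list and the 5 genes per table most alike to the members' mean (without Gm or Rik symbols) are named by rule, while Tpi1, Ldhb, Slc16a1, Slc16a7 and the copies were named after their values were seen. Alternatives were other pseudocounts, filters, scalings and prior settings, a smaller deposited 4-day table of 3 against 3, pooled or separate tumor groups, copies summed, and each library left out.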

Additional observations from a re-analysis of the deposited data

How the results depend on the processing

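The depth in reads is unknown, and 3 libraries a group limit the tumor comparisons. No paired analysis was possible because the columns carry no replicate numbers, and nothing in the labels says which luminal and basal-like domains came from 1 lesion. At 4 days 2 members were called, Hk2 and Gapdh, and the count was 1 without a filter (Gapdh), 0 without a prior trend, 1 after quantile normalization (Gapdh), 1 in the smaller table (Hk2), 1 with copies summed (Hk2, an alternative chosen after seeing the data) and 0 to 2 with 1 library left out. It was 0 without control B, C or D or mutant B or C, while Gapdh and Eno1 were called without mutant D. Gapdh with copies summed moved to 0.45, and Pkm after quantile normalization to 0.0097. Other values moved too over the alternatives beside single libraries left out, among them these. At 4 days Slc2a1 ran from -0.26 to -0.12, Pfkp from 0.54 to 0.87 and Eno1 from 0.43 to 0.83. In luminal tumors Slc2a1 ran from -0.84 to -0.39 and Gapdh from -0.87 to -0.15. In luminal domains Gapdh ran from -0.71 to -0.16, Pgam1 from -0.31 to -0.0059 and Pkm from 0.18 to 0.39. Between domains Slc2a1 ran from -0.22 to -0.11. In the 3 tumor comparisons 0 members were called by limma under every setting run.

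Over all genes, 467 calls at 4 days became 269 without a prior trend, 1054 with array weights, 147 in the smaller table and 129 to 596 with 1 library left out, and quantile normalization changed the split of higher to lower from 290 and 177 to 270 and 287. For luminal against basal tumors 338 calls became 52 without a filter (45 higher, 7 lower), 142 without a trend (48 and 94), 513 with the 5 luminal libraries as 1 group, 142 when fitted on 6 libraries and 3 to 813 with 1 library left out. For luminal domains 377 calls became 144 without a filter, 107 without a trend and 0 to 467 with 1 library left out, and between domains 0 became 20 without a trend.

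Some small differences changed sign. With the luminal libraries as 1 group Aldoa became 0.080 and Pkm 0.074 in the tumors. Under array weights, upper-quartile scaling and quantile normalization Slc2a1 in luminal domains became -0.040, -0.12 and -0.025, and Eno1 between domains 0.067, 0.046 and 0.12. Upper-quartile scaling moved the median of all genes from -0.11 to -0.19 in luminal tumors and from 0.0097 to -0.14 in luminal domains. With 1 library left out the values ran from -0.23 to 0.03 for Slc2a1 at 4 days, from -0.72 to 0.21 for Aldoa and -0.52 to 0.17 for Pkm in luminal tumors, and from -0.71 to 0.54 for Slc2a1 and -0.62 to 0.22 for Pgam1 in luminal domains. Between domains they ran from -0.53 to 0.17 for Hk2, -0.087 to 0.27 for Pfkp, -0.29 to 0.55 for Pgk1, -0.40 to 0.48 for Ldha, -0.29 to 0.40 for Eno1 and -0.46 to 0.12 for Pkm. Values that kept their sign also moved. In luminal tumors they ran from -1.44 to -0.20 for Slc2a1, 0.034 to 0.87 for Hk2, -0.74 to -0.16 for Pfkp, -0.90 to -0.079 for Gapdh, -1.20 to -0.37 for Pgam1, -1.23 to -0.60 for Eno1 and -1.65 to -0.60 for Ldha. In luminal domains they ran from 0.096 to 0.81 for Hk2, -0.77 to -0.18 for Pfkp, 0.084 to 1.02 for Aldoa, -0.94 to -0.11 for Gapdh, -0.59 to -0.025 for Eno1, 0.028 to 0.69 for Pkm and -1.22 to -0.27 for Ldha. Between domains they ran from -0.44 to -0.091 for Slc2a1, -0.76 to -0.36 for Aldoa, -0.34 to -0.17 for Gapdh and -0.59 to -0.099 for Pgam1, and at 4 days from 0.21 to 0.49 for Pgk1. The members' median ran from 0.37 to 0.60 at 4 days, -1.03 to -0.29 in luminal tumors, -0.60 to 0.10 in luminal domains and -0.26 to 0.01 between domains. Pcx (limma adjusted p up to 0.0682) and Pdk1 (up to 0.101) lost their calls without a trend and in the smaller table, Taldo1 without a trend (0.0847 in luminal tumors, 0.117 in luminal domains) and without a filter in luminal domains, and Pgd without a filter, without a trend and under upper-quartile scaling (up to 0.151). The cause of these changes was not tested.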

Other observations

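Of 10 widely used reference genes, a list that shares no gene with the members, 0 were called by limma in any of the 4 comparisons, and at an unadjusted p under 0.05 there were 0 at 4 days, 0 in luminal tumors, 2 in luminal domains and 0 between domains. Their median log2 fold change was 0.09, 0.05, -0.14 and 0.14 in that order.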
